A study of Mus musculus with 4 samples.

Results

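The Cyp2d and Cyp2j genes encode cytochrome P450 enzymes of the CYP2 family. They were followed here in mouse liver through 10 genes, namely Cyp2d9, Cyp2d10, Cyp2d11, Cyp2d22, Cyp2d26, Cyp2d34, Cyp2d40, Cyp2j5, Cyp2j6 and Cyp2j9, 7 of the Cyp2d and 3 of the Cyp2j subfamily. They were taken as the genes to which the accession of a non-control probe mapped, which gave 12 probes of 39429 for 10 genes of 17406 genes or other features tested. The study compared livers of mice lacking the Cyp3a cluster (genotype Cyp3a-/-, 2 livers) with livers of wild type mice (2 livers), each as total RNA on its own 1-colour array labelled with Cy3. The Cyp3a-/- animals lack a group of neighbouring P450 genes, and no treatment is named for either genotype. The sources used here do not give sex, age, strain or diet. The labels number 2 livers per genotype as replicates without saying whether they come from different animals.

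Cytochrome P450 enzymes sit in the membrane of the endoplasmic reticulum and insert an oxygen atom into drugs, steroids and fatty acids, with electrons passed on by cytochrome P450 reductase. CYP2D enzymes are best known through human CYP2D6, which oxidises many basic drugs, and in mouse liver through Cyp2d9, a testosterone hydroxylase that is more abundant in males. CYP2J enzymes are known as epoxygenases, which turn arachidonic acid into epoxides that signal in blood vessels, kidney and heart.

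No difference between Cyp3a-/- and wild type liver was detectable for any of the 10 genes with these 4 arrays. None passed the threshold of limma's test (0 of 10 higher and 0 of 10 lower at an adjusted p under 0.05), where 0.276% of all features tested passed (48, and 94, 506, 8 and 7 without Cyp3a-/- 1, Cyp3a-/- 2, wild type 1 and wild type 2). At an unadjusted p under 0.05, 1 of the 10 was higher, Cyp2j5, against 4.60% of all features, and 1 was lower, Cyp2j9, against 5.42%. Neither reached that p with the slide as a random block, without a filter on dim probes, without wild type 2 or without Cyp3a-/- 2, where Cyp2d34 did, and Cyp2j5 also missed it without Cyp3a-/- 1 and with the replicate number as a block. For 4 of the 10 the Cyp3a-/- livers lay wholly on 1 side of the wild type livers, as they did for 42.8% of all features, so these counts were near those of the array as a whole. Of the 4, Cyp2j5 and Cyp2j6 were higher in both Cyp3a-/- livers (22.5% of all features were) and Cyp2j9 and Cyp2d40 were lower (20.2% of all features were). The median log2 fold change, Cyp3a-/- minus wild type, was 0.05 over the 10 genes and 0.01 over all features.

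Signals are given as log2 processed intensity relative to the 75th percentile of the array, so that 0 marks the brightness of that percentile. All 12 probes were well above background on all 4 arrays, and no spot was saturated. Probes differ in how brightly they bind, so a level of one gene is not set against that of another. The names rest on the array's accessions, and close copies within each subfamily can share a probe's target, which makes each value uncertain as that of a single gene.

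The deleted locus was checked first. Cyp3a11, the most abundant P450 of the deleted cluster, stood at -6.98 and -6.93 in Cyp3a-/- livers, not well above background, against 7.94 and 8.09 in wild type livers, at least 7204-fold lower (limma adjusted p = 1.4e-05). Liver identity held on all arrays. Of 8 hepatocyte markers 7 were measured, all well above background on every array, with albumin (Alb) at 9.64 and 9.67 in Cyp3a-/- livers and 9.67 and 9.35 in wild type livers. The Cyp3a-/- livers were hybridised on slides 2 and 3 and the wild type livers shared slide 1, so that slide and genotype cannot be told apart. Across the 10 genes the median absolute difference was 0.28 between the Cyp3a-/- livers and 0.18 between the wild type livers, and between 0.13 and 0.26 for pairs of different genotype.

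The sequences before the transcription starts show which copies are alike. RefSeq promoters of assembly GRCm38.p6 were found for 8 of the 10 genes, 5 Cyp2d and 3 Cyp2j, and are shown as the 250 bases before the start. Cyp2d34 and Cyp2d22 had no entry. Cyp2d9 and Cyp2d10 are shown as the pair of the 8 with the highest percent identity, gaps counted. Cyp2d40 is shown as the Cyp2d gene with the lowest log2 fold change, and Cyp2j5 and Cyp2j9 as the highest and lowest Cyp2j genes. Capitals mark the motif matches named after the sequences. The stretches are chr15:82452127-82452376 on the plus strand for Cyp2d9, chr15:82407195-82407444 on the minus strand for Cyp2d10, chr15:82764123-82764372 on the minus strand for Cyp2d40, chr4:96664120-96664369 on the minus strand for Cyp2j5 and chr4:96591486-96591735 on the minus strand for Cyp2j9.
Cyp2d9: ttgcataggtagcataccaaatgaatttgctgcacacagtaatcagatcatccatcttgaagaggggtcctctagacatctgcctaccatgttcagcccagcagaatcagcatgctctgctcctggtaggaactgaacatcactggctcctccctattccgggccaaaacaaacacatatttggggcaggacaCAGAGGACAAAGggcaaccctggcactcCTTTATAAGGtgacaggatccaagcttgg
Cyp2d10: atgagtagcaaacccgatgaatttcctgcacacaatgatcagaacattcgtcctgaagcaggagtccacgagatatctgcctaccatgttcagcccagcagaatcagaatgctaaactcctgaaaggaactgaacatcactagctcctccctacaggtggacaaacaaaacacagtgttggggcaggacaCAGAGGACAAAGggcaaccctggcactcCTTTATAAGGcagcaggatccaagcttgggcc
Cyp2d40: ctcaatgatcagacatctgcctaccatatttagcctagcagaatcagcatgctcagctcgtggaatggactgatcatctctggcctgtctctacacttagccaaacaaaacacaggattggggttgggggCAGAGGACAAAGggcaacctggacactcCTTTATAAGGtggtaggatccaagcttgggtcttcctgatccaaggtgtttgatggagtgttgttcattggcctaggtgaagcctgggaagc
Cyp2j5: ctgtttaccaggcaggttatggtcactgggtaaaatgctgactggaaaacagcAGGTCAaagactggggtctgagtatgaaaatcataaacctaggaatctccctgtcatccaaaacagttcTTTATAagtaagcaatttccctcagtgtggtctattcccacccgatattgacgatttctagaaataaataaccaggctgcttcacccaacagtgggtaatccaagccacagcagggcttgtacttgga
Cyp2j9: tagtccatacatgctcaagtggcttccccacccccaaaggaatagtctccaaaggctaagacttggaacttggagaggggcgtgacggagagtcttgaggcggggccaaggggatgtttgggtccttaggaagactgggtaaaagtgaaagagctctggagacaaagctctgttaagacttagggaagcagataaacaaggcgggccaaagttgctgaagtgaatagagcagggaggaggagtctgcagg

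The Cyp2d9 and Cyp2d10 stretches were 82.8% identical in a global alignment, and Cyp2d9 and Cyp2d11 82.3%. Cyp2d10 and Cyp2d11 were 76.7% identical, and all other pairs lay between 44.7% and 56.5%, within and between the subfamilies. These percentages count every gap over the fixed windows, and Cyp2d26 and Cyp2d40 had the lowest at 44.7%. The run CTTTATAAGG, described below, began at position -92 in Cyp2d40 and -29 in Cyp2d9, so their windows are shifted. Cyp2d9 and Cyp2d40 had 155 identical bases, 31 mismatches and 128 gaps, against 149, 60 and 82 for Cyp2d9 and Cyp2j9 (51.2%). The percentages therefore do not rank the likeness of Cyp2d40 to Cyp2d genes against that to Cyp2j genes. The RefSeq table places the 7 Cyp2d genes in 1 cluster on chromosome 15 and the 3 Cyp2j genes in another on chromosome 4, away from Cyp3a11 on chromosome 5.

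All 5 Cyp2d stretches held the TATA box letters TATAAA, read on either strand, as did Cyp2j5 among the 3 Cyp2j stretches, against 12.4% of 32851 promoter stretches of the same length. The match began at position -28 in Cyp2d9, -31 in Cyp2d10, -31 in Cyp2d26, -43 and -16 in Cyp2d11, -91 in Cyp2d40 and -128 in Cyp2j5, where -1 is the last base before the start. Only the match at -16 in Cyp2d11 read TATAAA in the direction of the gene, and the others read TTTATA. The longest run of letters common to the 5 Cyp2d stretches was CTTTATAAGG, 10 bases around that box and present at both boxes of Cyp2d11, and 0.0822% of all stretches held it. With 1 free base the longest was CAGAGNACAAAG, 12 bases that ended before the box in each gene, from -57 to -46 in Cyp2d9 and from -120 to -109 in Cyp2d40, and 0.0609% of all stretches held it. Neither run was found in a Cyp2j stretch (0 of 3). Both were picked out because the Cyp2d stretches share them, so their presence there is no result.

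The nuclear receptor core letters AGGTCA were found in Cyp2j5 alone of the 8, from -197 to -192, against 14.0% of all stretches. None of the 8 held the letters AGTTCA, which PXR also binds (11.8% of all stretches), CAAAGTCCA for HNF4A (0.384%), TTCNNNGAA for STAT5 (7.02%), CGGAAG for GABP (13.6%) or TTGCGCAA for C/EBP (0.164%). Both strands were searched for each, and apart from CTTTATAAGG, which contains the box, no matches overlapped. Each motif was searched only as the letters given, so sites of the same factor spelled otherwise were not looked for. A count of 0 therefore does not mean that a stretch lacks a site for that factor. These are matches of letters within this window and do not show binding.

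**Figure D1:**
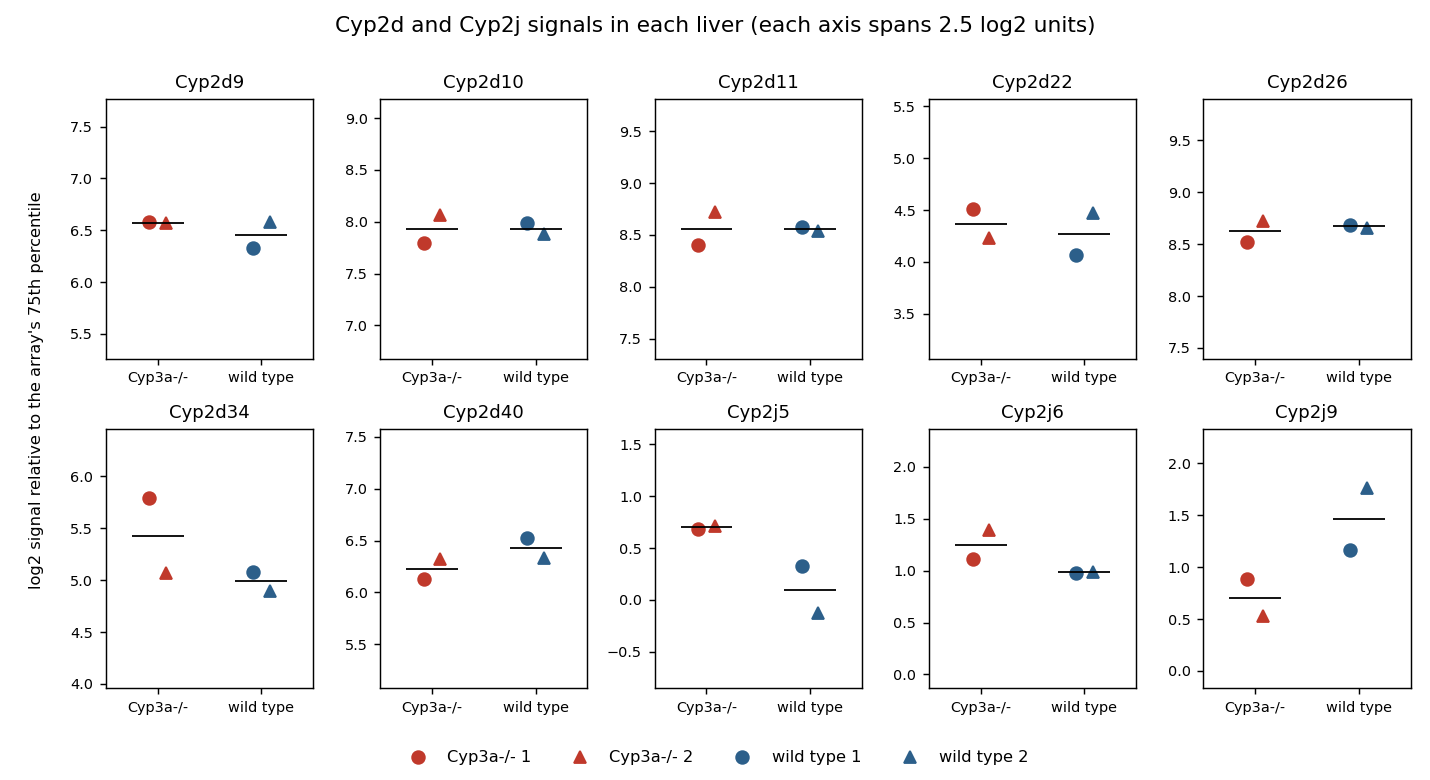
Scaled log2 signal (0 is the 75th percentile of the array) for each of the 10 genes, Cyp3a-/- livers in red on the left and wild type livers in blue on the right of each panel. Circles and triangles are livers 1 and 2, black lines are means, and each vertical axis spans 2.5 log2 units. Cyp2j5 and Cyp2j6 lie higher and Cyp2j9 and Cyp2d40 lower in both Cyp3a-/- livers, and the genotypes overlap for the other 6 genes.

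Among the Cyp2d genes, those with the least difference were Cyp2d10, Cyp2d11 and Cyp2d26. Cyp2d10 stood at 7.79 and 8.07 in Cyp3a-/- livers, against 7.99 and 7.88 in wild type livers. The wild type values lay between the Cyp3a-/- values, and the log2 fold change was 0.00 ± 0.19 (SE, n = 2 livers per genotype; limma adjusted p = 0.999). Its nominal 95% interval, before any adjustment for the number of genes, covered 0.716-fold to 1.39-fold. Differences within that range are not excluded with 2 livers per genotype. The interval is not the smallest difference that would pass the adjusted threshold. Cyp2c38, a gene of another CYP2 subfamily, did not pass at 3.50-fold (limma adjusted p = 0.062).

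Cyp2d11 stood at 8.40 and 8.72 in Cyp3a-/- livers, against 8.57 and 8.54 in wild type livers. Again the Cyp3a-/- livers enclosed the wild type livers, Cyp3a-/- 1 being the lowest and Cyp3a-/- 2 the highest. This gave a log2 fold change of 0.01 ± 0.20 (SE), with an interval of 0.716-fold to 1.41-fold. Cyp2d26 stood at 8.52 and 8.73 in Cyp3a-/- livers, against 8.69 and 8.66 in wild type livers, in the same order of livers. Its log2 fold change was -0.05 ± 0.18 (SE), with an interval of 0.707-fold to 1.32-fold.

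Cyp2d9, the testosterone hydroxylase of male mouse liver, stood at 6.58 and 6.57 in Cyp3a-/- livers, against 6.33 and 6.58 in wild type livers. Wild type 1 was the low liver and the other 3 lay within a narrow band, so that the genotypes overlapped. Its log2 fold change was 0.11 ± 0.19 (SE; limma adjusted p = 0.861), with an interval of 0.784-fold to 1.50-fold, and it stood at -0.01 without wild type 1. Cyp2d22, often set beside human CYP2D6, stood at 4.51 and 4.23 in Cyp3a-/- livers, against 4.07 and 4.47 in wild type livers. Each genotype had 1 higher and 1 lower liver, and the log2 fold change was 0.10 ± 0.22 (SE), with an interval of 0.726-fold to 1.58-fold. With quantile normalization the signs turned for Cyp2d9 (-0.05), Cyp2d11 (-0.12) and Cyp2d22 (-0.01), so these values carry no direction.

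Among the 7 Cyp2d genes followed, only Cyp2d40 had genotypes that did not overlap. It stood at 6.13 and 6.32 in Cyp3a-/- livers, against 6.52 and 6.34 in wild type livers. Cyp3a-/- 2 and wild type 2 were nearly level, while the Cyp3a-/- livers lay 0.20 apart. The log2 fold change was -0.20 ± 0.19 (SE; limma adjusted p = 0.747), with an interval of 0.628-fold to 1.21-fold, and it lay between -0.30 and -0.10 with 1 array left out.

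Of the 7 Cyp2d genes followed, Cyp2d34 had the largest difference on its brighter probe, and it came from 1 liver. That probe stood at 5.79 and 5.07 in Cyp3a-/- livers, against 5.08 and 4.90 in wild type livers, so that Cyp3a-/- 1 was high and Cyp3a-/- 2 lay between the wild type livers. The log2 fold change was 0.44 ± 0.28 (SE; limma adjusted p = 0.644), and without Cyp3a-/- 1 it was 0.08. The dimmer Cyp2d34 probe stood at 1.97 and 2.12 in Cyp3a-/- livers, against 1.91 and 2.15 in wild type livers, a log2 fold change of 0.02 ± 0.19 (SE), and Cyp3a-/- 1 was not the highest liver there. The probes of this gene therefore differed on whether Cyp3a-/- 1 stood apart.

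**Figure D2:**
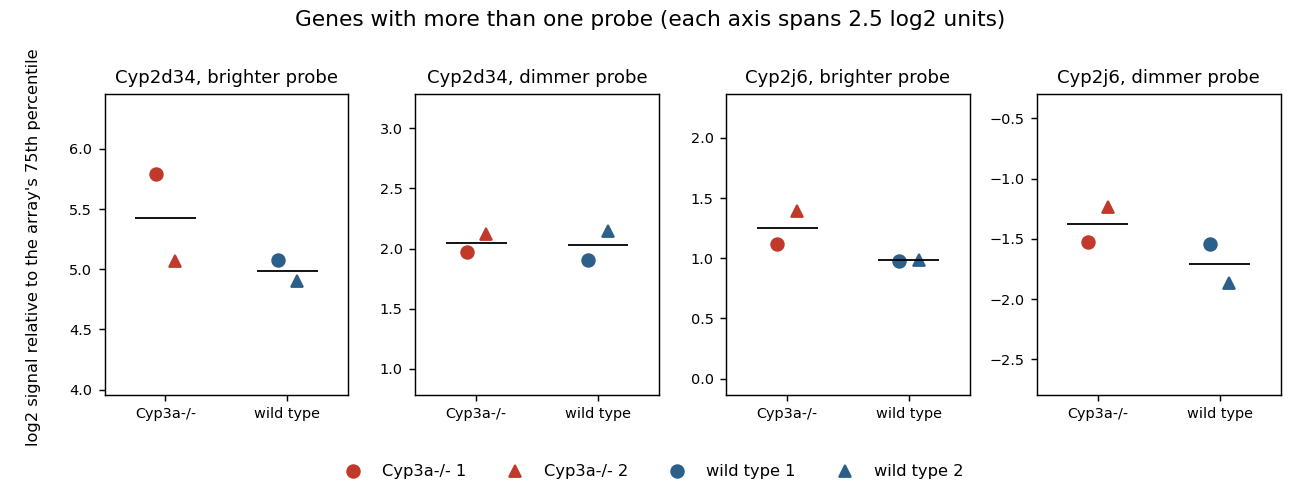
Scaled log2 signal (0 is the 75th percentile of the array) for the brighter and dimmer probe of Cyp2d34 and of Cyp2j6, Cyp3a-/- livers in red on the left and wild type livers in blue on the right. Circles and triangles are livers 1 and 2 and black lines are means. Cyp3a-/- 1 is high at 5.79 on the brighter Cyp2d34 probe only, while both Cyp2j6 probes are higher in both Cyp3a-/- livers.

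The Cyp2j genes lay farther from 0 than most Cyp2d genes, in both directions, a difference between subfamilies that was not tested. Cyp2j5, an arachidonic acid epoxygenase of mouse kidney and liver, stood at 0.69 and 0.71 in Cyp3a-/- livers, against 0.33 and -0.13 in wild type livers. The Cyp3a-/- livers lay close together and above both wild type livers. The log2 fold change was 0.60 ± 0.22 (SE), a ratio of 1.52-fold, with a nominal interval of 1.04-fold to 2.21-fold. It did not pass over all features (limma adjusted p = 0.467), and it was 0.37 without wild type 2 and 0.83 without wild type 1.

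Cyp2j9, a P450 known mainly from mouse brain, went the other way. It stood at 0.88 and 0.53 in Cyp3a-/- livers, against 1.16 and 1.76 in wild type livers. Both Cyp3a-/- livers lay below both wild type livers, and wild type 2 was the highest liver by a wide margin. The log2 fold change was -0.75 ± 0.27 (SE), a ratio of 0.593-fold, with a nominal interval of 0.372-fold to 0.944-fold, and it did not pass over all features (limma adjusted p = 0.457). Without wild type 2 it was -0.46. In whole liver, fewer cells of a type and less RNA per cell cannot be told apart.

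Most markers of macrophages and all of stellate cells lay lower, as Cyp2j9 did. Those of periportal hepatocytes lay higher, and those of other cell types were mixed. Macrophage markers, of which 8 of 8 were measured and well above background on all arrays, summed to 26.6 and 29.5 times the 75th percentile in Cyp3a-/- livers, against 34.0 and 36.0 in wild type livers. Their median log2 fold change was -0.11, with 7 of 8 below 0. Marco differed most, at -1.47 ± 0.30 (log2 fold change, SE), and made up a large part of the gap between the sums. Stellate cell markers, also 8 of 8, summed to 36.0 and 38.9 in Cyp3a-/- livers, against 43.2 and 39.2 in wild type livers. Dcn alone made up most of that sum, so it is close to a value of 1 gene. Its log2 signal was 5.08 and 5.18 in Cyp3a-/- livers, against 5.30 and 5.19 in wild type livers. Of the stellate cell markers 8 of 8 lay below 0, with a median log2 fold change of -0.18. None of these markers passed limma's threshold (0 of 8 in each list). At an unadjusted p under 0.05 there were 1 macrophage and 0 stellate cell markers, against 1745 of 17406 features. The part of these markers in the Cyp2j9 value was not tested. Of the markers measured, 4 of 7 sinusoidal endothelium, 2 of 5 cholangiocyte, 4 of 5 lymphocyte and 2 of 3 neutrophil markers lay below 0, with medians of -0.03, 0.06, -0.08 and -0.08. Above 0 lay 8 of 8 periportal, 5 of 7 pericentral and 5 of 7 general hepatocyte markers, with medians of 0.14, 0.27 and 0.10, and none of them passed.

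Cyp2j6, a widely expressed member of the subfamily, stood at 1.12 and 1.39 in Cyp3a-/- livers, against 0.98 and 0.99 in wild type livers on its brighter probe. On its dimmer probe it stood at -1.53 and -1.23 in Cyp3a-/- livers, against -1.54 and -1.87 in wild type livers. Both probes were thus higher in both Cyp3a-/- livers, by 0.27 ± 0.19 and 0.32 ± 0.22 (log2, SE), but Cyp3a-/- 1 and wild type 1 were nearly level on the dimmer probe. The brighter probe, which stands for the gene, did not pass (limma adjusted p = 0.675), and its value was 0.13 without Cyp3a-/- 2.

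The array also measured 5 other genes of these subfamilies. Cyp2j13 stood at 1.41 and 0.93 in Cyp3a-/- livers, against 0.74 and 0.57 in wild type livers, a log2 fold change of 0.52 ± 0.23 (SE). Cyp2j8 stood at 3.94 and 4.12 in Cyp3a-/- livers, against 3.69 and 3.68 in wild type livers, a log2 fold change of 0.35 ± 0.18 (SE). With them, 4 of the 5 measured Cyp2j genes lay higher in both Cyp3a-/- livers without overlap (22.5% of all features did) and 1, Cyp2j9, lower (20.2% did). None of these 5 passed limma's threshold (0 of 5; 2 at an unadjusted p under 0.05, Cyp2j5 higher, against 4.60% of all features, and Cyp2j9 lower, against 5.42%). Further probes of Cyp2j13 and Cyp2j8, and the probe of Cyp2j11, were not well above background on any array.

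Of the other Cyp2d genes, Cyp2d12 stood at 6.58 and 6.59 in Cyp3a-/- livers, against 6.40 and 6.58 in wild type livers, higher in both Cyp3a-/- livers, though by little over wild type 2 (log2 fold change 0.10 ± 0.18, SE). Cyp2d13, listed as a transcribed pseudogene, stood at 1.45 and 1.34 in Cyp3a-/- livers, against 1.40 and 1.36 in wild type livers. The transcribed pseudogene Cyp2d37-ps varied most, with 3.87 and 4.50 in Cyp3a-/- livers, against 4.99 and 4.41 in wild type livers, and its genotypes overlapped (log2 fold change -0.51 ± 0.31, SE). Over all 10 measured Cyp2d genes the median log2 fold change was 0.01, and over the 5 Cyp2j genes it was 0.35.

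**Figure D3:**
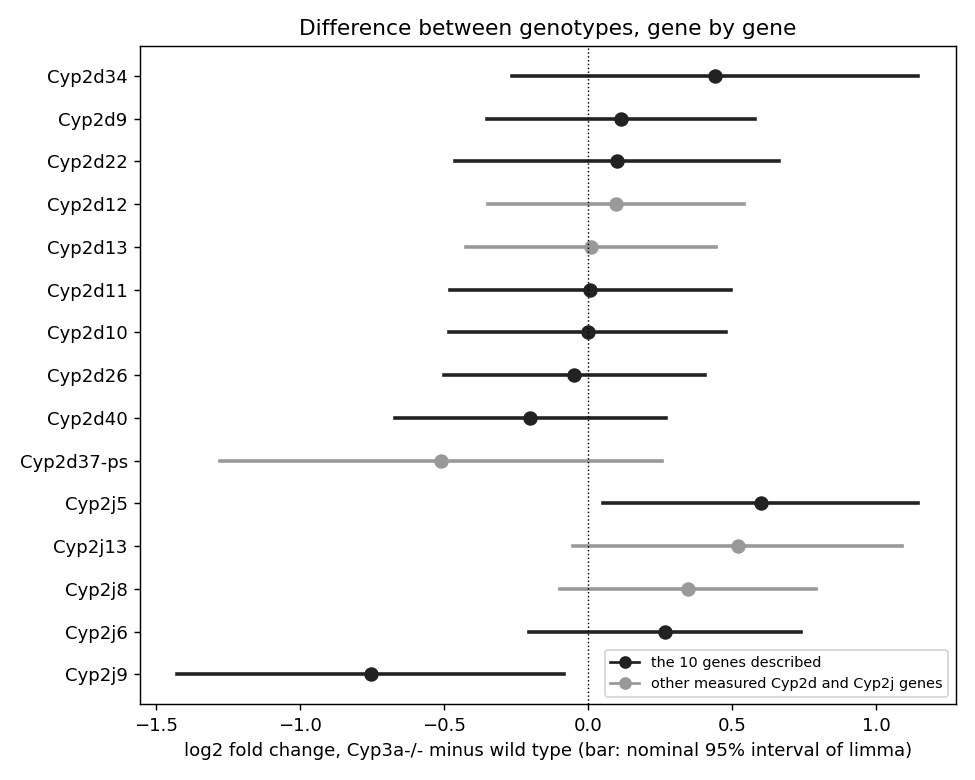
Log2 fold change, Cyp3a-/- minus wild type, with its nominal 95% interval from limma, for the 10 genes described (black) and the 5 other measured Cyp2d and Cyp2j genes (grey). The Cyp2d intervals all include 0, and the intervals of Cyp2j5 (0.05 to 1.15) and Cyp2j9 (-1.43 to -0.08) do not, before adjustment over 17406 features.

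Set beside the other CYP2 subfamilies, the Cyp2d genes stayed near 0 where some others moved far. Of the Cyp2b genes, which respond to the xenobiotic receptor CAR, 2 of 2 measured rose, where 0.276% of all features passed in either direction. Their median log2 fold change was 4.17. Cyp2b10 stood at a log2 fold change of 4.33 ± 0.23 (SE; limma adjusted p = 0.0040), and Cyp2b9 passed at an adjusted p of 0.023. Cyp2b9 stood well above background in 1 wild type liver and met the filter through the Cyp3a-/- livers, so its part in that count and median is no support for them. Without wild type 1, and likewise without wild type 2, Cyp2b10, Cyp2b9, Cyp2c55 and the male-biased gene Moxd1 no longer passed. Without a filter on dim probes Cyp2b9, Cyp2c55 and Moxd1 did not pass either (limma adjusted p = 0.135, 0.070 and 0.119). With another background correction (normexp) Cyp2b9 missed too, at 1.97 ± 0.25 (log2 fold change, SE; limma adjusted p = 0.074). Of the Cyp2c genes, drug and arachidonic acid oxidases, 1 of 10 passed as higher, Cyp2c55 (5.39 ± 0.34, log2 fold change, SE; limma adjusted p = 0.0086), and the median was 0.52. At an unadjusted p under 0.05 there were 6 of the 10, against 1745 of 17406 features. Without overlap, 7 of the 10 lay higher in both Cyp3a-/- livers (22.5% of all features did). The next Cyp2c gene, Cyp2c38, stood at 7.62 and 7.49 in Cyp3a-/- livers, against 5.56 and 5.94 in wild type livers (limma adjusted p = 0.062). Of 7 other CYP2 genes none passed (0 of 7; 2 at an unadjusted p under 0.05, against 1745 of 17406 features). Their median was 0.12, with Cyp2g1 at 2.21 ± 0.40 (log2 fold change, SE) and Cyp2a4 at 0.67 ± 0.34. The difference between subfamilies was not tested.

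**Figure D4:**
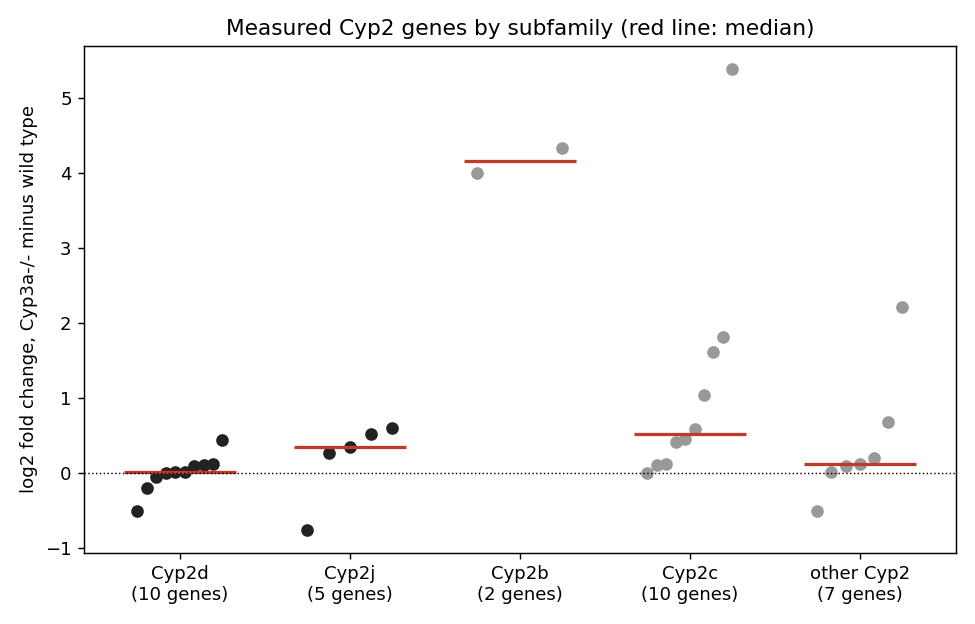
Log2 fold change, Cyp3a-/- minus wild type, of every measured gene in 5 groups of CYP2 genes, with the Cyp2d and Cyp2j genes in black, the others in grey and each group's median as a red line. The Cyp2d values lie between -0.51 and 0.44 and the Cyp2j values between -0.75 and 0.60, while the median of the 2 Cyp2b values is 4.17.

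Factors known to act on these genes were measured too. HNF4A, the liver receptor that drives human CYP2D6 transcription, stood at 6.38 and 6.55 in Cyp3a-/- livers, against 6.38 and 6.75 in wild type livers (Hnf4a, log2 fold change -0.10 ± 0.21, SE). Nr0b2 encodes SHP, a corepressor that holds HNF4A back, and stood at 0.55 and 0.75 in Cyp3a-/- livers, against 1.27 and 1.88 in wild type livers. It lay lower in both Cyp3a-/- livers but did not pass (-0.92 ± 0.26, SE; limma adjusted p = 0.344), while Klf9 overlapped (-0.06 ± 0.20). Of the 19 regulators measured none passed (0 of 19; 4 at an unadjusted p under 0.05, against 1745 of 17406 features). Their median was -0.08, and the widest difference was that of the immediate early gene Egr1 at -1.55 ± 0.30.

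Among genes of electron supply, 4 of 8 lay higher in both Cyp3a-/- livers without overlap, Por, Cyb5a, Cyb5b and Pgrmc1 (22.5% of all features did). Cyb5r1 lay lower in both (20.2% did). Por, the reductase that feeds all microsomal P450 enzymes, stood at 5.69 and 5.43 in Cyp3a-/- livers, against 4.11 and 4.36 in wild type livers, and Cyb5a, cytochrome b5, at 8.60 and 8.51 in Cyp3a-/- livers, against 7.95 and 8.01 in wild type livers. Neither passed over all features (limma adjusted p = 0.137 for Por and 0.380 for Cyb5a), and 0 of 8 genes of this group did. At an unadjusted p under 0.05 there were 2 of the 8, against 1745 of 17406 features, and the median was 0.25.

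For the substrates and products of the CYP2J enzymes, 22 genes of arachidonate and epoxide handling were measured and none passed (0 of 22; median 0.01). At an unadjusted p under 0.05 there were 5 of the 22, against 1745 of 17406 features. Ephx2, the soluble epoxide hydrolase that breaks the epoxides down, stood at 6.23 and 5.90 in Cyp3a-/- livers, against 5.94 and 6.02 in wild type livers, and the genotypes overlapped. The widest differences were those of the fatty acid hydroxylase genes Cyp4a14, at -3.96 ± 0.98, and Cyp4a10, at -1.65 ± 0.51 (log2 fold change, SE).

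Cyp2d9 is more abundant in male mouse liver under the pulsed growth hormone of males, and genes of that axis were set beside it. Stat5b, the transcription factor that carries the male pulse, stood at 2.86 and 2.72 in Cyp3a-/- livers, against 2.67 and 2.49 in wild type livers (0.22 ± 0.18, log2 fold change, SE). The repressor gene Bcl6 stood at 3.20 and 2.11 in Cyp3a-/- livers, against 1.25 and 2.69 in wild type livers, a spread within each genotype wider than the difference. Of 11 genes of the axis none passed (0 of 11; 2 at an unadjusted p under 0.05, against 1745 of 17406 features). Socs2, a feedback inhibitor, stood at -2.01 ± 0.54 and the liver factor Onecut1 at -1.79 ± 0.32. Among other male-biased genes 1 of 19 passed, Moxd1, against 0.276% of all features in either direction. Moxd1 was not well above background on either wild type array and met the filter through the Cyp3a-/- livers where it was higher (at least 49.8-fold). The median of these 19 genes was 0.08, with Susd4 at 1.51 ± 0.24. Among female-biased genes 1 of 8 rose, Cyp2b9, and 1 fell, Cyp3a41b, which belongs to the deleted cluster and was not well above background in Cyp3a-/- livers, with a median of 0.06.

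Over the 4 arrays, the named genes whose pattern was most like that of Cyp2d9 were Sec22b, Zfp959 and Arsb. Their root mean square distances from it, each gene centred on its own mean, were 0.007, 0.011 and 0.011 log2 units, and 270 of 12577 named genes lay within 0.05. For Cyp2j5 the nearest were Olfm3, Tmem140 and Ifit1, at 0.024, 0.034 and 0.036 log2 units, with 6 genes within 0.05. With 4 arrays such likeness is a description of these livers.

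**Figure D5:**
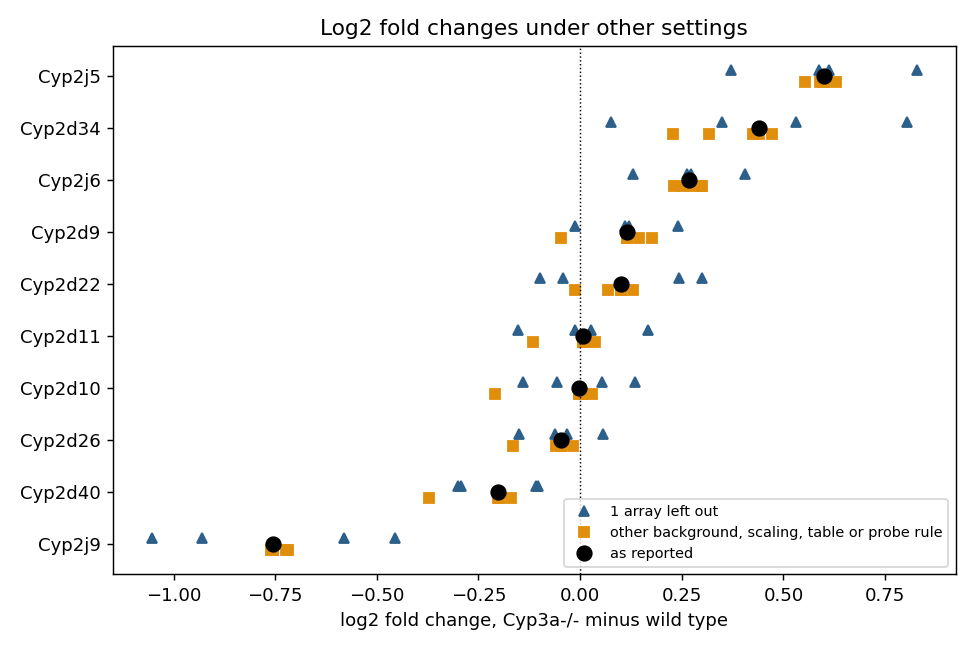
Log2 fold change, Cyp3a-/- minus wild type, of each of the 10 genes as reported (black circles), with 1 array left out (blue triangles) and with other background correction, scaling, value table or probe rule (orange squares). The 3 Cyp2j genes, Cyp2d34 and Cyp2d40 stay on their side of 0, and the other 5 Cyp2d genes cross it.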

How the data were processed

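RNA of 4 livers, 2 Cyp3a-/- and 2 wild type, was measured on 1-colour Agilent arrays, with genotype and replicate number taken from the labels. The intensity values were deposited by the authors as output of Agilent Feature Extraction 11.5.1.1, corrected for background and spatial trend and left without scaling between arrays, per the file headers. The flags used are other columns of 0 or 1 that the authors deposited beside them. A further deposited table by the authors holds log2 values of unstated scale and centring. It behaved as the scanner values scaled to the 75th percentile and centred on each probe's median: 39417 of 39417 probes had a median of 0 (tolerance 0.002), columns correlated with the scanner values at 1.00, and column medians were -0.02 and 0.02 for the Cyp3a-/- arrays and 0.06 and -0.07 for the wild type arrays. Its direction was read from that comparison.

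Control spots and 113 to 148 non-uniform or outlier spots per array were left out, and log2 intensity was taken minus the array's 75th percentile. Probes well above background on both arrays of a genotype were kept (21508), named through RefSeq accessions of GRCm38.p6 (28025 of 39429 named), and each gene was represented by its brightest kept probe, giving 17406 features. Per array, 54.4% to 56.4% of probes passed the background flag. The array's design build is mm9, so the table served for names and order. The test was that of limma 3.58.1, run in R 4.3.3 (2-sided, Benjamini-Hochberg over all features, 3.54 prior and 2 residual degrees of freedom), after a check on simulated data. An "at least" fold sets the brighter mean against the lowest signal well above background. The labels name a wild type or a Cyp3a-/- mouse for each liver and do not say whether the 2 replicates of a genotype are different animals. They also do not say that a replicate number marks a shared experiment. Same-numbered livers deviated from their genotype's mean with a correlation of -0.10, so no block was used. P-values and SEs rest on the spread between these livers together with limma's prior variance over all features. That prior held more degrees of freedom (3.54) than the livers did (2), and 2 arrays per genotype limit the precision.

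The 10 genes, the lists and the rule for naming genes were chosen with earlier results of these data known. All 10 genes were named with every probe, as were the other Cyp2d and Cyp2j genes, and in each further list the called members or those with the largest change. Alternatives covered background correction (normexp with an offset of 50 on median spot intensities, since the files hold no mean intensity), quantile and median scaling, the deposited table, filters on dim probes, the probe rule, slide and replicate blocks, an intensity trend and leaving out each array. Limma's estimate of the slide correlation gave no value with 4 arrays, so 0.3865 was taken from the squared differences of the wild type pair against the Cyp3a-/- pair.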

Additional observations from a re-analysis of the deposited data

How the results depend on the processing

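Under 16 alternatives no member passed limma's threshold (0 of 10 under each), and the lowest adjusted p was 0.140, for Cyp2d34 without Cyp3a-/- 2. Of 160 member values 147 kept their sign and their side of the threshold, and 5 members kept their sign throughout, Cyp2d34, Cyp2d40, Cyp2j5, Cyp2j6 and Cyp2j9. The log2 fold change took the other sign with quantile normalization for Cyp2d9 (-0.046), Cyp2d11 (-0.12) and Cyp2d22 (-0.014), and for Cyp2d10 with normexp (0.0066) and median scaling (0.029). Leaving out 1 array turned it within -0.012 to 0.24 for Cyp2d9, -0.14 to 0.14 for Cyp2d10, -0.15 to 0.17 for Cyp2d11, -0.10 to 0.30 for Cyp2d22 and -0.15 to 0.056 for Cyp2d26. With 1 array left out Cyp2d34 ranged from 0.08 to 0.80, Cyp2d40 from -0.30 to -0.10, Cyp2j6 from 0.13 to 0.41, Cyp2j5 from 0.37 to 0.83 and Cyp2j9 from -1.05 to -0.46. Over all features 48 were called (31 higher, 17 lower), 659 with median scaling (388 and 271), where limma's prior degrees of freedom were infinite and all features shared 1 variance, 13 without a filter (4 and 9), 9 when all 4 arrays had to be above background (6 and 3), and 94 without Cyp3a-/- 1 (47 and 47), 506 without Cyp3a-/- 2 (410 and 96), 8 without wild type 1 (1 and 7) and 7 without wild type 2 (1 and 6). The cause was not tested for the filters and the arrays left out. With the replicate number as a block 58 features and 0 members were called, and with the crossed pairing, added after seeing the data, 56 and 0. Normexp called 33 and the slide block 32. Every alternative named in the methods was run. With 2 livers per genotype, differences within the intervals given above are not excluded, and larger ones can also miss the adjusted threshold.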
